A study of Mus musculus with 23 samples.

Results

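DNA replication and S phase genes were followed as 1 set of 40 members, chosen by name among the 35385 gene symbols of the deposited count table, across 23 libraries of mouse oligodendrocyte lineage cells. By role they are 10 origin licensing genes (Orc1, Orc6, Cdc6, Cdt1 and the ring subunits Mcm2 to Mcm7), 6 helicase activation genes (Mcm10, Cdc45 and the GINS subunits Gins1 to Gins4) and 5 polymerase and primase genes (Pola1, Pola2, Prim1, Pold1 and Pole). Further members are 5 genes of the sliding clamp and its loader (Pcna and Rfc2 to Rfc5), 2 of Okazaki fragment joining (Fen1 and Lig1), 4 of nucleotide supply (Rrm1, Rrm2, Tyms and Tk1), 4 of S phase entry and its checkpoint (Ccne1, Ccne2, E2f1 and Clspn) and 4 of chromatin copying (Chaf1a, Chaf1b, Uhrf1 and Dnmt1). The study compared progenitors of oligodendrocytes (OPCs) derived from epiblast stem cells with oligodendrocytes (OLs) made from them, and asked what CRISPR targeting of Sox6, a gene for a SOX family transcription factor, changes at each stage. One set held magnetically sorted OPCs and sorted O1-positive OLs with no CRISPR vector named on their labels, 3 libraries each. The other held OPCs that all carried a lentiviral CRISPR vector and had all been selected with 500 ng/mL puromycin for 96 hours: 3 libraries with the non-targeting guide sgNTC (control), 2 with sgSox6 g1 (guide 1) and 3 with sgSox6 g2 (guide 2), each after 60 hours in growth medium with bFGF and PDGFA. The same 3 kinds of cells, 3 libraries each, were kept for 60 hours in a differentiation permissive medium that lacks the thyroid hormone T3; the labels call these OLs, and they were not sorted. The lines named are EpiSC5 (strain 129SvEv) and 129O1 (129S1/SvImJ), no library is described as a single clone, and targeted and control cells came from 1 original batch of OPCs. The columns of the tables carry letters (A, B, C) that the labels do not use, and nothing says that libraries of a group were separate cultures, so the p-values rest on the spread among these libraries, and that spread may be technical only.

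A cell copies its genome once per division. In G1, the origin recognition complex, Cdc6 and Cdt1 load the MCM helicase ring onto origins; cyclin E with its kinase and the E2F factors then open S phase, Cdc45 and the GINS complex switch the helicase on, and the polymerases copy the strands behind it, held on DNA by the PCNA clamp. Progenitors divide in response to PDGF, whereas oligodendrocytes leave the cell cycle as they differentiate, and RNA of these genes is therefore a usual readout of how much of a culture is cycling. In bulk RNA, fewer cycling cells and less replication gene RNA per cell cannot be told apart.

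Replication genes are textbook targets of E2F factors, so promoters were searched for E2F motifs (TTTCCCGC, TTTCGCGC, TTTGCCGC or TTTGGCGC, either strand; matches may overlap) from 250 bases before to 50 bases after the RefSeq transcription start (GRCm38.p6). RefSeq promoters were matched for 33 of the 40 members; Rfc2, Ccne2, Pole, Gins1, Gins2, Gins4 and Mcm4 had no entry. A motif lay in 15 of these 33 (45.5%), against 2.6% of 27025 genes with a promoter in the table. The 15 were Cdc6, Cdt1, Orc1, Mcm3, Mcm5, Mcm6, Mcm7, Gins3, Pola1, Pold1, Rfc3, Lig1, Clspn, Uhrf1 and Dnmt1. Of 27 matched genes of mitosis and G2, 1 (3.7%) had one. The CHR element (TTTGAA or TTCGAA, either strand), known from promoters of mitotic genes, lay in 22 of those 27 (81.5%) but in 7 of the 33 members (21.2%), against 21.7% of all genes. A CCAAT box (CCAAT, either strand) lay in 20 members (60.6%), 21 mitotic genes (77.8%) and 41.1% of all genes. These counts describe letters in a fixed window and not bound sites.

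The next 4 stretches are shown because they carry the E2F letters in full outside any annotated gene, in members of 2 roles that recur below: Mcm5, which had the lowest adjusted p after targeting in OLs, its ring partner Mcm6, and Pola1, the catalytic subunit of DNA polymerase alpha. Capitals mark the match, and each sequence runs 5′ to 3′ along the gene's own strand.
Mcm5 (chr8:75109336-75109387, plus strand, 2 overlapping matches, 153 to 142 bases before the start): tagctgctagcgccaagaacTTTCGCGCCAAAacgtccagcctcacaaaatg
Mcm6, far match (chr1:128359784-128359835, minus strand, 2 overlapping matches, 110 to 99 bases before the start): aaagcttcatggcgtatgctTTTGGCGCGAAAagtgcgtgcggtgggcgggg
Mcm6, near match (chr1:128359725-128359772, minus strand, 47 to 40 bases before the start): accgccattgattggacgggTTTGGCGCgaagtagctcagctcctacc
Pola1 (chrX:93632266-93632313, minus strand, 138 to 131 bases before the start): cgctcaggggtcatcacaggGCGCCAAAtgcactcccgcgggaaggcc
The Mcm5 and far Mcm6 matches are 12 bases long because motif words on both strands overlap there. In the stage comparison of control cells described below, the median log2 change was -2.61 over the 15 members with a motif and -2.20 over the 18 without. In it 13 of the 15 and 18 of the 18 fell by edgeR. After targeting, the medians with and without a motif were -0.25 and -0.26 in OPCs and -0.51 and -0.28 in OLs. In targeted OLs 3 of 14 tested members with a motif fell and 4 of 16 without. These differences were not tested.

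**Figure D1:**
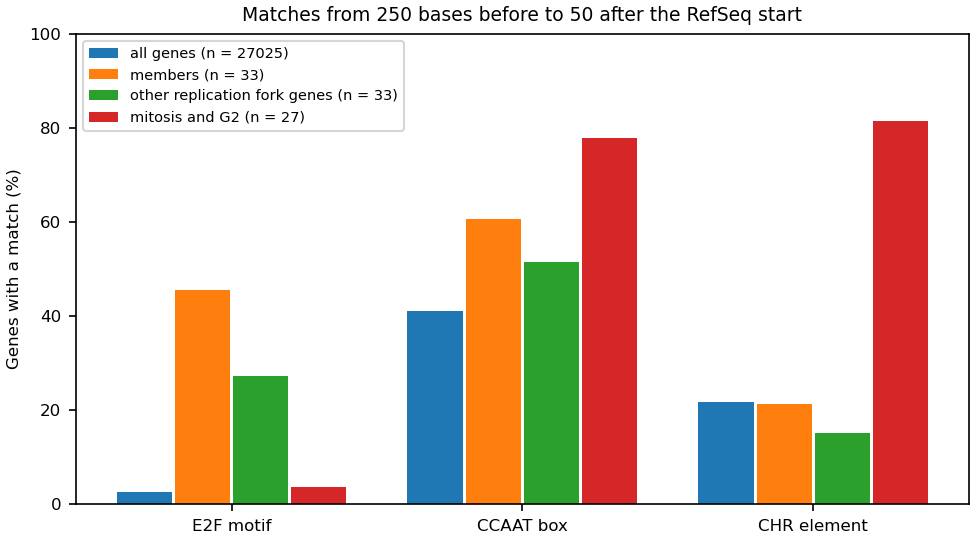
Share of genes (%, y axis) with at least 1 match to each of 3 motifs (x axis) in RefSeq promoters, for all genes, the members, other replication fork genes and genes of mitosis and G2 (n in the legend). The E2F motif lay in 45.5% of the members and 3.7% of the mitotic genes, the CHR element in 21.2% and 81.5%.

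Total counts ran from 13967438 to 16958611 in OPC libraries and from 13124580 to 18551822 in OL libraries; the depth of the sorted libraries is unknown. Sox6 RNA was checked first: it ran from 165.4 to 233.7 CPM (counts scaled to a common library total) in control OPCs and from 67.4 to 88.9 CPM in targeted OPCs, and from 387.4 to 437.3 CPM and 157.2 to 258.6 CPM in control and targeted OLs. The progenitor markers summed to between 9839 and 12691 CPM in the control libraries of both stages. That sum joins markers that moved apart between control OPCs and control OLs (means). Gpr17 was at 51.3 and 1641 CPM, Sox10 at 29.2 and 265.6 CPM and Pdgfra at 21.9 and 108.0 CPM, while Cspg4 was at 300.5 and 185.0 CPM. Microglial and pluripotent markers summed to at most 2.86 CPM in any library of the SOX6 experiment. The 10 oligodendrocyte markers summed to 236.4 ± 20.8 CPM in control OPCs against 3032 ± 113 CPM in control OLs (SD, n = 3), and to 29158 ± 159 TPM in sorted OLs. One library stood apart: guide 1 OL library B, whose log ratios to its group followed transcript length with a Spearman rho across genes of -0.41, against 0.32 and 0.37 in its group mates. Results for OLs are therefore also given without it.

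The row of a gene in these tables does not always describe the full transcript. Dividing each row's counts by its TPM gives the transcript length the values stand for, and for 12 of the 40 members this was shorter than the coding sequence of the gene's principal transcript (GENCODE M21), against 14.7% of 10004 genes with a mean of at least 50 counts in OPCs. The 12 are Mcm3, Mcm7, Pola2, Pold1, Pole, Rfc4, Rfc5, Lig1, Rrm2, Tyms, Clspn and Chaf1b. Mcm3 stood for 675 bases against a coding length of 2436, Clspn for 1004 against 3945 and Rrm2 for 775 against 1170. Their median OPC level was 95.8 counts, against 1243 counts for the other 28 members. Low values of these 12 therefore describe their rows, and levels between genes are not read from them; why the rows are short was not tested.

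Per length, replication genes differed widely in progenitors. In control OPCs the clamp Pcna led with 428.2 TPM, followed by the ribonucleotide reductase subunit Rrm1 at 152.7, the helicase subunits Mcm5 at 152.2 and Mcm2 at 134.2, thymidine kinase Tk1 at 130.3 and the clamp loader subunit Rfc2 at 129.8 TPM (means, n = 3). The low end, among members whose rows are not short, held Gins3 at 1.14, E2f1 at 2.13 and Mcm6 at 3.59 TPM. Mcm6 belongs to the same ring as Mcm2 and Mcm5, so its row lay far below its partners.

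In sorted cells, replication genes were far lower in OLs than in OPCs. Summed over the members, the level was 2055 ± 177 TPM in sorted OPCs against 320.7 ± 20.8 TPM in sorted OLs (SD, n = 3 each), 15.6% of the OPC level. All 38 members that passed the filter (TPM of 1 or more in 3 or more of the 6 libraries) had lower means in OLs, and 37 fell by limma, where 34.4% of all 11900 genes tested fell. A gene at work in OPCs alone can pass that filter through the OPC libraries, so the count is a description. Mcm6 and Gins3 did not pass it. The median log2 difference was -2.88 for the 38 and -0.14 for all genes, taken as log2(TPM + 1), a scale that makes changes of low genes look smaller.

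Licensing genes gave some of the largest falls. Mcm5 read 149.2, 145.6 and 127.1 TPM in sorted OPCs against 8.82, 6.24 and 3.79 TPM in sorted OLs, a log2 difference of -4.34 (SE 0.24, limma adjusted p = 7.6e-06). Mcm2, another subunit of the helicase ring, read 120.5, 110.6 and 99.6 TPM and then 7.86, 5.25 and 4.93 TPM (-4.01, SE 0.17, limma adjusted p = 2.09e-06). For both genes every OPC library lay far above every OL library. The exception was Mcm3, at 0.921, 5.72 and 0.813 TPM in OPCs and 2.98, 1.97 and 0 TPM in OLs, where the groups overlap (-0.33, SE 0.67, limma adjusted p = 0.695). Its row is one of the short ones.

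Of the 4 enzymes that supply nucleotides, Tyms and Tk1 had the largest fitted falls. Thymidylate synthase Tyms read 46.1, 75.3 and 56.2 TPM in sorted OPCs against 3.50, 0.937 and 1.18 TPM in sorted OLs (log2 difference -4.47, SE 0.34, limma adjusted p = 3.33e-05). Tk1, which salvages thymidine, read 150.8, 159.3 and 119.4 TPM and then 4.76, 5.84 and 7.37 TPM (-4.37, SE 0.17, limma adjusted p = 1.43e-06). Rrm2, the S phase subunit of ribonucleotide reductase, read 6.27, 6.62 and 11.1 TPM in OPCs and was listed at 0 in all 3 OL libraries, so no fold is given. Rrm1, the other subunit, read 151.2, 151.7 and 144.3 TPM in OPCs and 19.7, 20.8 and 19.1 TPM in OLs (-2.85, limma adjusted p = 2.68e-07), a smaller step. No library of either stage overlapped the other for these genes. The rows of Tyms and Rrm2 are short ones.

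At the fork, Prim1, the primase catalytic subunit, read 58.7, 55.7 and 53.2 TPM in sorted OPCs against 3.99, 2.82 and 2.94 TPM in sorted OLs (log2 difference -3.75, SE 0.14, limma adjusted p = 1.16e-06). Pola1 read 25.98, 29.6 and 23.6 TPM and then 4.14, 2.86 and 2.51 TPM (-2.73). Lig1, the ligase that seals Okazaki fragments, read 23.9, 24.2 and 26.5 TPM and then 2.19, 0.344 and 0 TPM (-3.99, SE 0.40, limma adjusted p = 0.00013). These 3 genes show the same order, with every OL library far below every OPC library. The row of Lig1 is a short one. Cdc45, which joins the helicase as it starts, read 5.94, 8.59 and 8.79 TPM and then 1.23, 2.80 and 0.994 TPM (-1.76). Uhrf1, which brings the maintenance methylase Dnmt1 to new DNA, read 42.9, 48.3 and 33.3 TPM and then 1.65, 5.05 and 1.39 TPM (-3.64). Ccne1, cyclin E1, read 27.6, 26.98 and 24.4 TPM and then 4.10, 2.71 and 2.96 TPM (-2.69).

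A few members kept a substantial level in sorted OLs. Pcna, which also serves DNA repair, read 504.2, 480.2 and 425.7 TPM in OPCs and still 114.6, 112.1 and 104.9 TPM in OLs (log2 difference -2.08, SE 0.08, limma adjusted p = 1.3e-06). Gins4 read 44.7, 44.4 and 42.5 TPM in OPCs and 30.9, 34.3 and 30.5 TPM in OLs (-0.45, SE 0.08, limma adjusted p = 0.00233), the smallest fall among the 37. Orc6 (-0.79), E2f1 (-1.14) and Mcm7 (-1.20) had the next smallest. E2f1, however, did not keep a substantial level. Its sorted means were low, 2.36 TPM for OPCs and 0.547 TPM for OLs. At such levels the log2(TPM + 1) scale makes a fall look smaller. The falls thus ranged from a small step at Gins4 to more than 4 log2 units at Tyms, Tk1, Mcm5 and Mcm2.

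The cells of the SOX6 experiment gave the same comparison by counts: control OLs after 60 hours without T3 against control OPCs in growth medium. The 2 stages were deposited in separate tables, so stage and table cannot be told apart. The members summed to 4055 ± 369 CPM in control OPCs against 905.2 ± 12.1 CPM in control OLs (SD, n = 3 each), 22.3% of the OPC level. All 40 passed the filter on low counts, Gins3, Rrm2 and Chaf1b only through their OPC counts, and 38 fell by edgeR, where 21.6% of all 14352 genes tested fell; none rose. The median log2 change was -2.37 over the members and 0.02 over all genes. Mcm3 (-2.61, SE 1.03, edgeR adjusted p = 0.054) and Gins3 (-1.29, SE 1.48, edgeR adjusted p = 0.529) did not pass the threshold. The OL libraries were not sorted. Astrocyte markers summed to 2006 ± 76 CPM in control OPCs against 7277 ± 157 CPM in control OLs, with none of the 12 at 0. In the sorted stages they summed to 824.8 ± 48.2 and 3135 ± 1047 TPM. That sorted sum joins markers that moved apart (means in OPCs and OLs). Apoe was at 77.9 and 1380 TPM, S100b at 22.9 and 988.7 TPM and Gfap at 0.252 and 193.2 TPM. Id3, however, was at 200.7 and 48.8 TPM and Sox9 at 47.1 and 16.9 TPM. Fgfr3 was at 51.5 and 24.9 TPM and Slc1a3 at 25.2 and 2.83 TPM. The part of these markers in the result was not tested.

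Each role held members that fell. By edgeR 9 of 10 licensing genes fell, 5 of 6 helicase activation genes, and all members of the other 6 roles (5 of 5, 5 of 5, 2 of 2, 4 of 4, 4 of 4 and 4 of 4). Cdt1, the loading factor that is destroyed once S phase starts, read 97.3, 90.1 and 88.98 CPM in control OPCs against 12.6, 12.4 and 13.1 CPM in control OLs (log2 change -2.86, SE 0.09, edgeR adjusted p = 9.09e-12). Cdc6, its partner, read 41.4, 37.3 and 33.2 CPM and then 5.22, 3.15 and 5.91 CPM (-2.97). Orc1, a subunit of the origin recognition complex, read 19.9, 20.2 and 15.3 CPM and then 2.26, 3.03 and 3.10 CPM (-2.72). Mcm2 read 441.3, 394.8 and 389.9 CPM and then 66.9, 62.5 and 66.6 CPM (-2.64, SE 0.08, edgeR adjusted p = 6.77e-12). The groups lie far apart for these 4 licensing genes.

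Beyond licensing, Mcm10, which helps to activate the loaded helicase, read 103.7, 86.2 and 86.6 CPM in control OPCs against 10.2, 10.8 and 12.5 CPM in control OLs (log2 change -3.05, SE 0.14, edgeR adjusted p = 2.14e-10). Tk1 read 167.3, 140.0 and 123.0 CPM and then 13.4, 12.5 and 11.7 CPM (-3.51, SE 0.16, edgeR adjusted p = 2.2e-10), leaving 8.74% of the OPC mean. Tk1 and Mcm10 were thus among the most reduced members, with no overlap. Lig1 spread widely among control OPC libraries, at 4.95, 16.6 and 30.6 CPM, and read 1.22, 3.47 and 0.216 CPM in OLs (-3.39, SE 0.98, edgeR adjusted p = 0.0119). Its fall was lost when OPC library C was left out (-2.70, edgeR adjusted p = 0.0508). Rrm2 read 4.37, 2.75 and 6.23 CPM and then 0.232, 0.882 and 0.144 CPM (-3.37). The rows of Lig1 and Rrm2 are short ones.

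Pcna and Ccne1 fell by less than the median member, and Pola1 by about as much as that median. Pcna read 637.8, 506.7 and 425.4 CPM in control OPCs against 143.9, 148.8 and 146.7 CPM in control OLs (log2 change -1.84, SE 0.15, edgeR adjusted p = 1.97e-07). Ccne1 read 54.2, 48.6 and 43.3 CPM and then 13.8, 12.3 and 12.8 CPM (-1.91). Pola1 read 147.3, 119.0 and 116.5 CPM and then 24.4, 24.0 and 26.6 CPM (-2.35). All 3 kept between 19.6% and 28.0% of the OPC mean. Uhrf1 read 158.8, 79.7 and 140.7 CPM and then 30.3, 19.7 and 9.004 CPM (-2.67). Cdc45 read 11.1, 17.4 and 8.85 CPM and then 4.18, 3.72 and 3.03 CPM (-1.77, SE 0.53, edgeR adjusted p = 0.0135), a fall lost without OPC library B (-1.45, edgeR adjusted p = 0.0593) or without OL library C (-1.65, edgeR adjusted p = 0.0507). The smallest falls were those of Mcm7 (-0.81), Gins4 (-0.92) and Orc6 (-1.23), 3 members that were also among the smallest in sorted cells. The row of Mcm7 is one of the short ones. The members not yet described all fell by edgeR as well. Log2 changes ran from -1.67 to -2.53 for Gins1 and Gins2, from -2.41 to -2.68 for Mcm4, Mcm5 and Mcm6, from -1.35 to -2.98 for Pola2, Prim1, Pold1 and Pole, and from -1.35 to -2.64 for the loader subunits Rfc2 to Rfc5. The flap nuclease Fen1 was at -2.18, Rrm1 at -1.87 and Tyms at -2.27. Cyclin E2 (Ccne2) was at -2.38, E2f1 at -2.04 and Clspn at -2.44. Of the chromatin copying genes Chaf1a was at -2.56, Dnmt1 at -1.87 and Chaf1b, a low and short row, at -3.78. Among related genes, 30 of 41 other replication fork genes fell and none rose, where 21.6% of all genes tested fell. In the same test 26 of 29 tested genes of mitosis and G2 fell, and 11 of 18 E2F and pocket protein genes fell while 2 rose. The largest fall in each of these lists was that of the chromatin remodeler Hells (-3.27), of the mitotic kinase Cdk1 (-3.19) and of the E2F family activator E2f2 (-3.02).

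**Figure D2:**
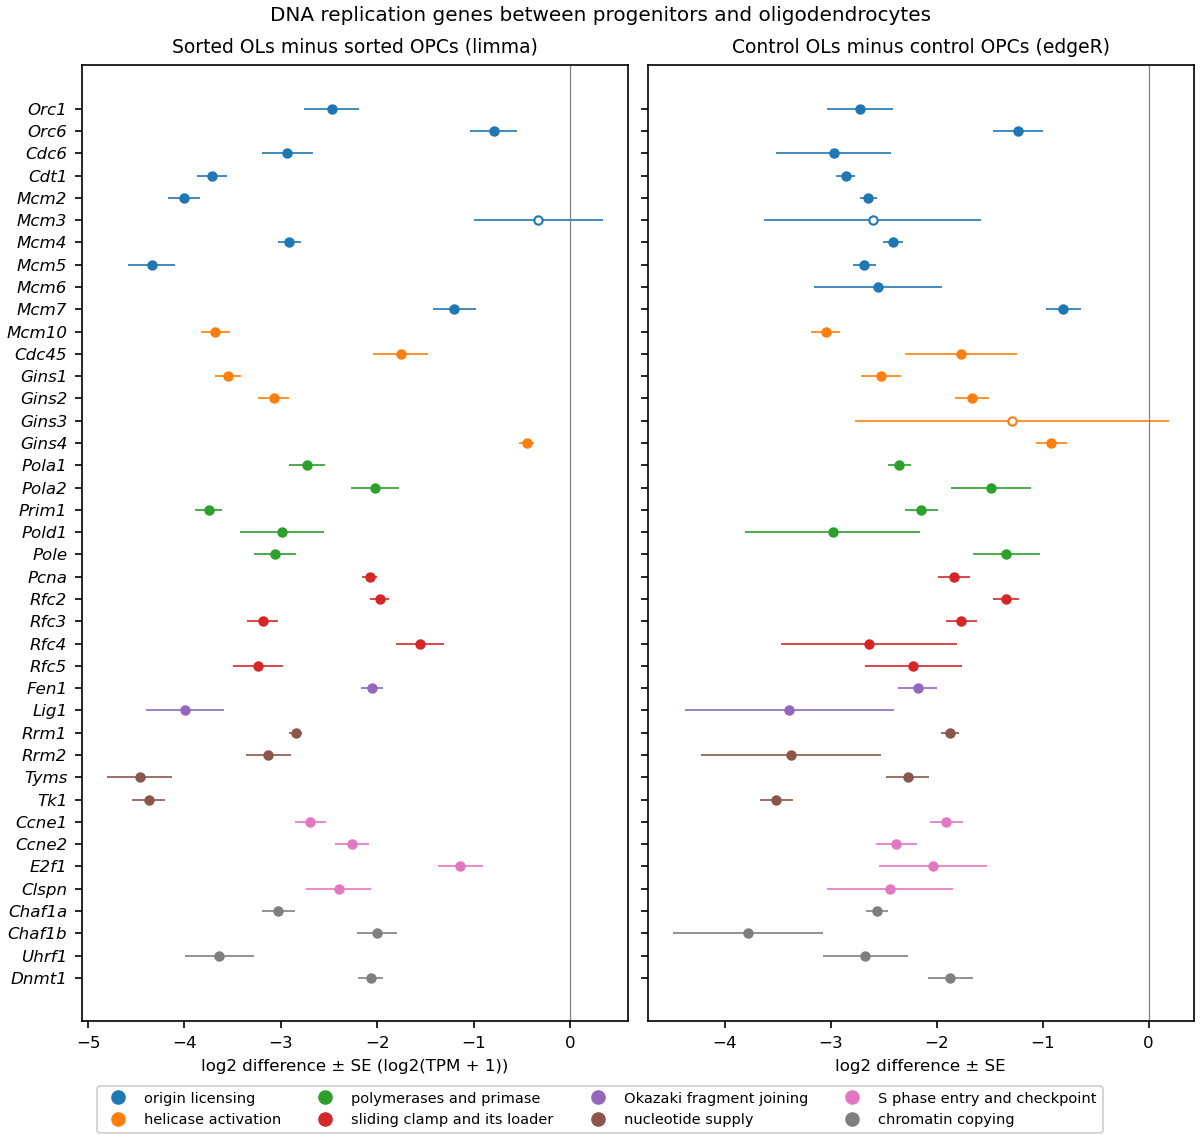
Log2 difference ± SE (x axis) of each member (y axis) between stages, for sorted cells by limma (left; 3 against 3 libraries) and control cells by edgeR (right; 3 against 3 libraries, fitted with all 17); filled points passed an adjusted p of 0.05 and colours give the role. Every fitted difference lies below 0, from -0.33 (Mcm3) to -4.47 (Tyms) on the left and from -0.81 (Mcm7) to -3.78 (Chaf1b) on the right.

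In OPCs targeted for Sox6 the replication genes shifted downwards, by a small amount in the median. Their sum stood at 76.9% of the control mean with guide 1 and at 91.9% with guide 2. The members summed to 4481, 3848 and 3835 CPM in the control libraries A, B and C, to 3076 and 3156 CPM for guide 1, and for guide 2 to 3847, 3849 and 3480 CPM. Guide 1 libraries thus lie below all others, and guide 2 libraries overlap control. Over both guides 2 of 40 members fell by edgeR (Cdt1 and Chaf1a), where 1.63% of all 13358 genes tested fell, and none rose. The count was 0 with the transcript length offset, 4 with library totals and 9 by DESeq2. The log2 change was below 0 for all 40, from -1.14 (Chaf1b) to -0.01 (Pola2), with a median of -0.25 against 0.00 over all genes; 23 had an unadjusted p under 0.05. The members share the same 8 libraries, control library A among them, so their common sign is not independent evidence. In the authors' deposited table for OPCs, 39 members are listed and 2 pass an adjusted p of 0.05, both lower in targeted cells: Cdt1 and Orc6.

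Both falls were small. Cdt1 read 97.3, 90.1 and 88.98 CPM in control OPCs, 62.4 and 71.7 CPM for guide 1, and 79.4, 80.9 and 73.3 CPM for guide 2 (log2 change -0.33, SE 0.06, edgeR adjusted p = 0.0247). Chaf1a, the large subunit of the factor that places histones on new DNA, read 150.4, 134.3 and 144.8 CPM in controls, 110.2 and 110.9 CPM for guide 1, and 132.8, 133.5 and 124.6 CPM for guide 2 (-0.23, SE 0.05, edgeR adjusted p = 0.0392). In both genes every targeted library lay below every control, the guide 2 libraries only just so for Chaf1a. That held for 6 members (Orc6, Cdt1, Mcm4, Gins1, Chaf1a and Chaf1b), 15% of the 40, against 6.24% of genes tested. The call of Cdt1 was lost on leaving out any of 6 single libraries and that of Chaf1a on leaving out any of the 8, with a highest adjusted p of 0.0986 and 0.148; the count of falling members was 0 without control A, control B, guide 1 A or guide 2 C, 1 without guide 1 B, guide 2 A or guide 2 B, and 4 without control C.

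Other members with the largest changes did not pass the threshold. Orc6, the small origin recognition subunit, read 12.97, 12.6 and 13.02 CPM in control OPCs, 7.22 and 7.75 CPM for guide 1 and 10.9, 8.86 and 6.99 CPM for guide 2 (log2 change -0.63, SE 0.15, edgeR adjusted p = 0.0594). Gins1, a subunit of the GINS complex, read 37.1, 35.1 and 32.8 CPM, then 22.4 and 25.4 CPM, then 31.9, 32.6 and 26.6 CPM (-0.36, SE 0.08, edgeR adjusted p = 0.0628). For these 2 genes the targeted libraries lay below control. Mcm6 read 11.2, 8.99 and 17.2 CPM, then 6.36 and 9.68 CPM, then 4.26, 8.79 and 5.24 CPM (-0.82, edgeR adjusted p = 0.205). Pole, the catalytic subunit of DNA polymerase epsilon, read 12.7, 9.68 and 15.4 CPM, then 7.39 and 3.13 CPM, then 7.56, 9.86 and 11.7 CPM (-0.79, edgeR adjusted p = 0.204). Cdc45 read 11.1, 17.4 and 8.85 CPM, then 6.59 and 4.81 CPM, then 11.7, 8.14 and 7.83 CPM (-0.76, edgeR adjusted p = 0.158). These 3 rows hold few counts, and their control and targeted libraries overlap.

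The abundant members moved little. Mcm2 read 441.3, 394.8 and 389.9 CPM in control OPCs, 310.2 and 319.7 CPM for guide 1 and 371.9, 390.4 and 334.3 CPM for guide 2 (log2 change -0.25, SE 0.06, edgeR adjusted p = 0.0567). Pcna read 637.8, 506.7 and 425.4 CPM, then 395.8 and 411.0 CPM, then 503.5, 488.2 and 453.5 CPM (-0.22, SE 0.11, edgeR adjusted p = 0.340). In both genes guide 1 was below control while guide 2 overlapped it. Pola1 read 147.3, 119.0 and 116.5 CPM, then 105.0 and 98.5 CPM, then 109.7, 117.6 and 101.0 CPM (-0.25). Ccne1 read 54.2, 48.6 and 43.3 CPM, then 36.7 and 35.7 CPM, then 43.5, 48.7 and 36.8 CPM (-0.28). Uhrf1 (-0.21), Lig1 (-0.27) and Rrm2 (-0.27) varied more within control than between groups: Lig1 ran from 4.95 to 30.6 CPM in control and from 9.54 to 22.0 CPM in targeted cells, Rrm2 from 2.75 to 6.23 CPM and from 2.59 to 4.64 CPM, and Uhrf1 from 79.7 to 158.8 CPM and from 89.9 to 145.8 CPM.

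The guides gave different counts in OPCs. With guide 1 alone 8 of 40 members fell by edgeR (Cdt1, Mcm2, Mcm5, Gins1, Rrm1, Tyms, Tk1 and Chaf1a), where 1.47% of all genes fell, with a median of -0.35; the count was 0 with the length offset, 2 in 1 fit of all libraries and 15 by DESeq2. With guide 2 alone none fell, where 0.719% of all genes fell; 9 were lower at an unadjusted p under 0.05, the median was -0.14, and DESeq2 also called 0. Tk1 gave the largest of the guide 1 falls, to 96.2 and 94.3 CPM from 167.3, 140.0 and 123.0 CPM in control, while guide 2 libraries held 138.2, 144.9 and 126.7 CPM. Tested directly, guide 2 minus guide 1 passed the threshold for 0 of 13358 genes by edgeR; 14 members were higher with guide 2 at an unadjusted p under 0.05, and the lowest adjusted p among them was 0.258. Guide 1 has 2 libraries, and leaving out either left 0 falling members in a fit that takes the spread of the remaining library from the other groups; the count was 0 also without guide 2 A, 2 without guide 2 B or control B, 4 without control A, 5 without guide 2 C and 11 without control C. For guide 2 it was 1 without its library B.

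In differentiation medium, where the members' sum was already at 22.3% of the OPC level, 7 members fell further on targeting, 3 of them subunits of the 6-part MCM ring. The members summed to 912.8, 911.7 and 891.2 CPM in control OLs, to 684.4, 890.2 and 719.1 CPM for guide 1, and for guide 2 to 673.2, 671.3 and 665.3 CPM. All targeted libraries lie below all controls, guide 1 library B by little. The group means stood at 84.5% (guide 1) and 74.0% (guide 2) of the control mean. Of 37 members tested, 7 fell by edgeR, where 3.37% of all 13447 genes fell, and none rose; Gins3, Rrm2 and Chaf1b had too few counts. The 7 were Mcm5, Mcm2, Mcm7, Cdt1, Mcm10, Ccne1 and Chaf1a, that is 4 of 10 licensing genes and 1 each of the helicase activation, S phase entry and chromatin copying genes. The median was -0.33 over the 37 and 0.00 over all genes. In the authors' deposited table for OLs, 33 members are listed and 8 pass an adjusted p of 0.05, all lower in targeted cells: Cdt1, Mcm2, Mcm5, Mcm7, Pola1, Tk1, Ccne1 and Chaf1a.

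Mcm5, whose promoter stretch is printed above, had the lowest adjusted p of the 7. It read 54.8, 59.1 and 59.2 CPM in control OLs, 28.5, 36.97 and 33.3 CPM for guide 1 and 28.9, 24.4 and 29.7 CPM for guide 2 (log2 change -0.94, SE 0.10, edgeR adjusted p = 0.000836). Mcm2 read 66.9, 62.5 and 66.6 CPM, then 41.3, 43.1 and 46.8 CPM, then 41.8, 45.1 and 39.6 CPM (-0.61, SE 0.08, edgeR adjusted p = 0.00204). Mcm7 read 14.9, 15.9 and 18.0 CPM, then 10.1, 9.09 and 9.26 CPM, then 10.8, 10.0 and 11.2 CPM (-0.70, SE 0.12, edgeR adjusted p = 0.00864). All 6 targeted libraries lay below all 3 controls in each of these ring subunits. The row of Mcm7 is a short one, standing for 806 bases against a coding length of 2157. Of the other subunits, Mcm4 (-0.34, edgeR adjusted p = 0.074), Mcm6 (-0.68, SE 0.64) and Mcm3 (0.17, SE 1.17) did not pass the threshold, the latter 2 with wide errors. The calls of Mcm5 and Mcm2 held without any single library, with highest adjusted p of 0.00965 and 0.0213.

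The remaining 4 fell by a similar amount. Cdt1 read 12.6, 12.4 and 13.1 CPM in control OLs, 6.64, 7.68 and 8.34 CPM for guide 1 and 8.38, 7.91 and 7.63 CPM for guide 2 (log2 change -0.71, SE 0.13, edgeR adjusted p = 0.0109). Mcm10 read 10.2, 10.8 and 12.5 CPM, then 5.72, 7.21 and 6.66 CPM, then 6.01, 4.64 and 6.28 CPM (-0.88, SE 0.16, edgeR adjusted p = 0.0116). Both guides lay well below control for the 2 genes. Ccne1 read 13.8, 12.3 and 12.8 CPM, then 6.58, 7.75 and 6.66 CPM, then 6.78, 10.1 and 6.40 CPM (-0.82, SE 0.17, edgeR adjusted p = 0.025). Chaf1a read 25, 27.4 and 20.1 CPM, then 14.95, 17.4 and 16.9 CPM, then 14, 11.8 and 13.2 CPM (-0.73, SE 0.12, edgeR adjusted p = 0.00889). No targeted library reached the lowest control in either. Full separation of this kind held for 10 members, 25% of the 40, against 8.64% of genes tested; beside the 7 they are Mcm4, Pola1 and Clspn, a checkpoint mediator with a short row and few counts in OLs (-1.78, SE 0.74, edgeR adjusted p = 0.237).

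Clamp, polymerase and ligase genes did not pass the threshold in OLs. Pcna read 143.9, 148.8 and 146.7 CPM in control OLs, 129.2, 196.8 and 132.1 CPM for guide 1 and 114.1, 121.8 and 118.4 CPM for guide 2 (log2 change -0.13, SE 0.13, edgeR adjusted p = 0.662). A single library, guide 1 B, lies above control there and the other 5 lie below it. Pola1 read 24.4, 24.0 and 26.6 CPM, then 19.7, 18.7 and 23.4 CPM, then 18.4, 19.1 and 19.1 CPM (-0.35, SE 0.10, edgeR adjusted p = 0.0852). Uhrf1 read 30.3, 19.7 and 9.004 CPM, then 11.3, 22.1 and 20.4 CPM, then 16.2, 7.85 and 17.2 CPM (-0.33), so that its groups overlap throughout. Cdc45 (0.861 to 6.53 CPM in targeted, 3.03 to 4.18 CPM in control OLs) and Lig1 (0 to 4.41 and 0.216 to 3.47 CPM) were too low to resolve. Rrm2 read at most 0.882 CPM in any OL library. At such levels a change was not detectable at this depth. Nor did the other members tested pass: the polymerase genes Pola2, Prim1, Pold1 and Pole ran from -0.39 to 0.01, Rfc2 to Rfc5 from -0.15 to 0.03, Rrm1 (-0.30), Tyms (-0.02) and Tk1 (-0.59) lay below 0, and Fen1 (-0.43), Dnmt1 (-0.57) and Ccne2 (-0.20) did so too. Orc1 (-0.46), Orc6 (-0.25), Cdc6 (-1.06) and Gins1 (-0.43), Gins2 (-0.33) and Gins4 (0.02) complete the licensing and helicase genes, and E2f1 was at 0.06.

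The number of falling members in OLs depended on single libraries. Without guide 1 library B, the one that stands apart, 14 members fell, where 8.6% of all 13810 genes tested fell: the 7 above with Mcm4, Gins2, Pola1, Pcna, Fen1, Rrm1 and Tk1. Pcna was then at -0.25 (SE 0.04, edgeR adjusted p = 0.00161), Tk1 at -0.70 (adjusted p = 0.00652) and Rrm1 at -0.36 (adjusted p = 0.000771). Without control library A, B or C the count was 4, 2 and 3. Leaving out any other library gave 6 or 7. Ccne1 was the least stable of the 7, its call being lost on leaving out any of 7 of the 9 libraries.

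The 2 guides gave similar counts in OLs. With guide 1 alone 5 of 37 members fell (Cdt1, Mcm2, Mcm5, Mcm7 and Ccne1), where 2.53% of all genes fell, and with guide 2 alone 6 fell (Cdt1, Mcm2, Mcm5, Mcm7, Mcm10 and Chaf1a), where 2.13% fell, both by edgeR. Both guides are set against the same controls, so the 4 shared genes are not independent findings. Mcm5 changed by -0.81 (SE 0.12, edgeR adjusted p = 0.00585) with guide 1 and by -1.07 (SE 0.12, edgeR adjusted p = 0.00169) with guide 2. The direct test of guide 2 minus guide 1 passed the threshold for 0 of 13447 genes by edgeR, with 3 members lower at an unadjusted p under 0.05. Single libraries moved both counts. Without guide 1 library B they were 9 and 14, where 5.6% and 7.45% of all genes fell, without control A 2 and 2, without control B 2 and 2, and without control C 1 and 3. The count for guide 1 was 3 without its library A or guide 2 A or C, and that for guide 2 was 3, 3 and 2 without its own libraries A, B and C.

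**Figure D3:**
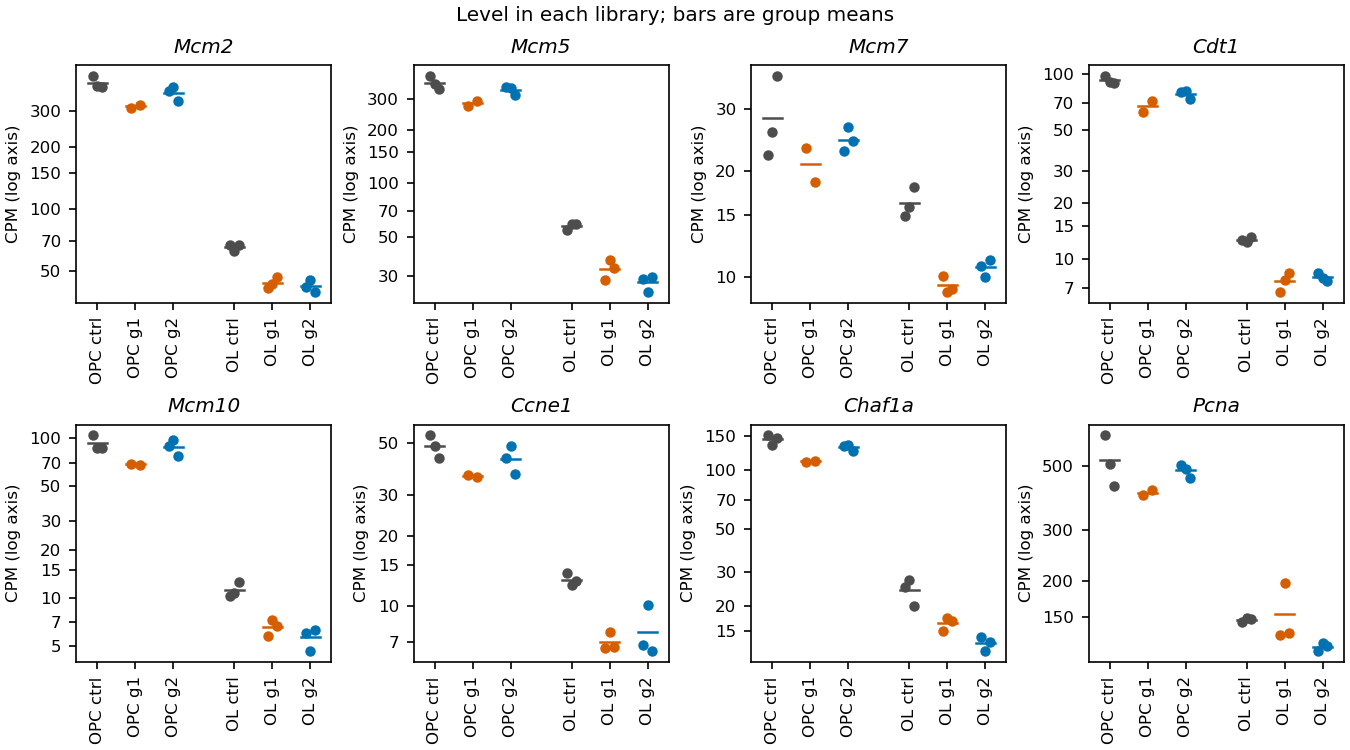
Level (CPM, log y axis) of the 7 members that fell in targeted OLs, and of Pcna, in each library of the 6 groups of the SOX6 experiment (x axis; ctrl, g1 and g2 are control, guide 1 and guide 2); bars are group means. In the first 7 panels all 6 targeted OL libraries lie below the 3 control OL libraries, and for Pcna guide 1 library B lies above them at 196.8 CPM.

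**Figure D4:**
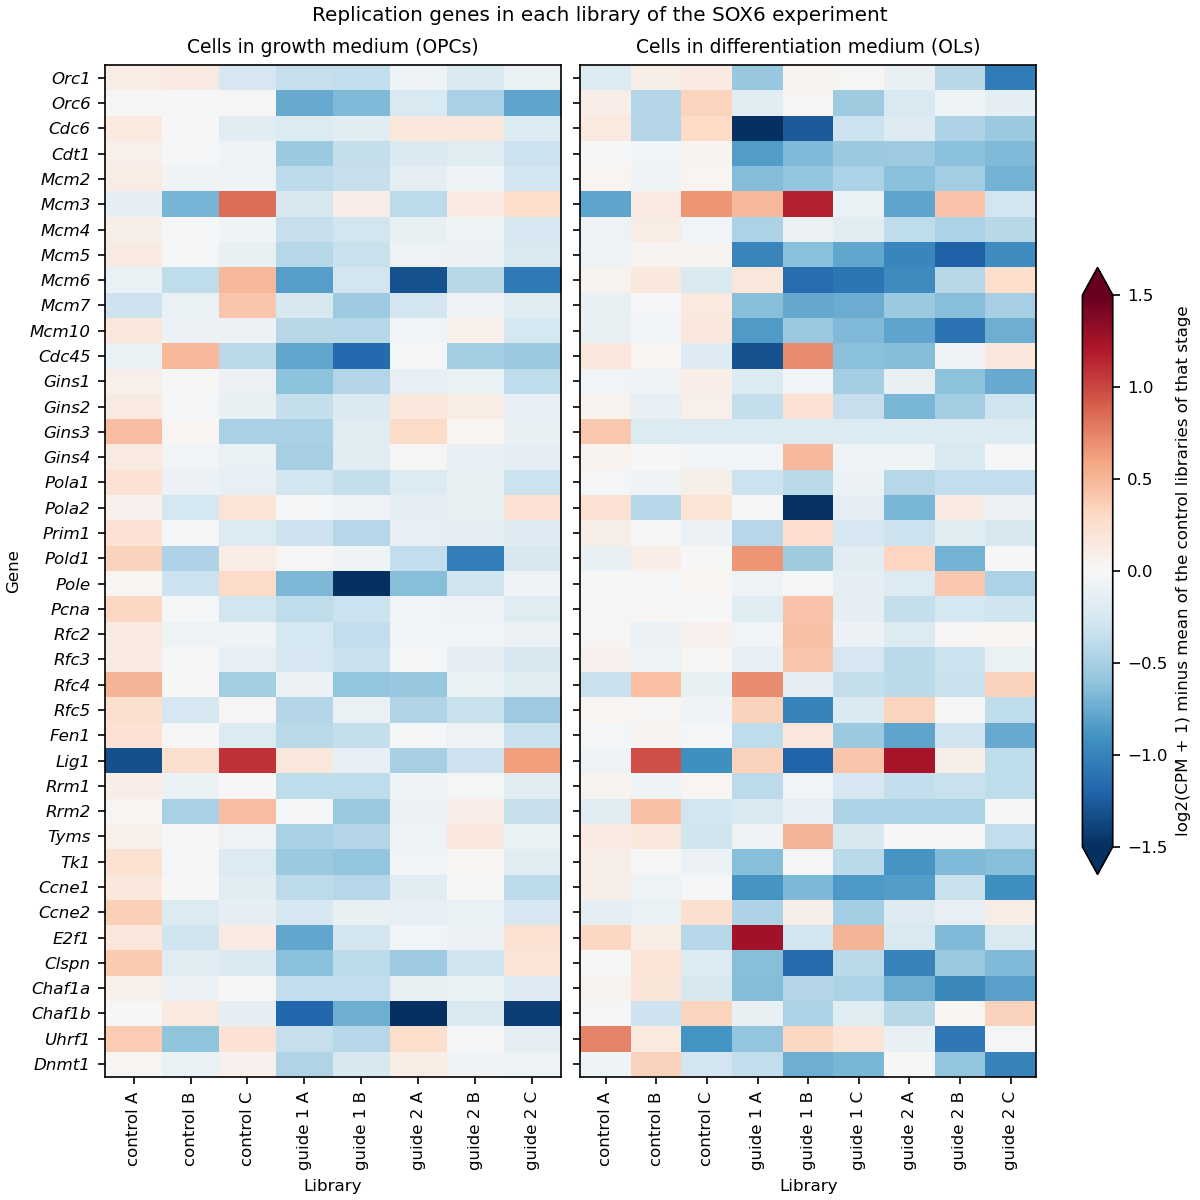
Difference of log2(CPM + 1) from the mean of the control libraries of the same stage (colour, limits at 1.5 either way) for each member (rows) and library (columns), OPCs left and OLs right. Guide 1 OPC columns are blue for most genes, guide 2 OPC columns are pale, and in OLs the rows of Cdt1, Mcm2, Mcm5, Mcm7, Mcm10, Ccne1 and Chaf1a are blue in every targeted library.

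Whether targeting acted differently in the 2 media was tested as the response in OLs minus that in OPCs, over all 17 libraries. Only Mcm5 passed the threshold among the 40 members (-0.68, SE 0.12, edgeR adjusted p = 0.0124), where 0.773% of all 14352 genes were lower. With library totals as the scaling 5 members passed (Cdt1, Mcm2, Mcm5, Mcm10 and Chaf1a), and by DESeq2 4 did (Mcm2, Mcm5, Mcm10 and Chaf1a). Its targeted libraries held 76.8% (guide 1) and 91.2% (guide 2) of the control mean in OPCs, and 57.1% and 47.9% in OLs. Mcm10 (-0.62, SE 0.16, edgeR adjusted p = 0.0809), Chaf1a (-0.48, SE 0.13, edgeR adjusted p = 0.093), Mcm2 (-0.34, SE 0.10, edgeR adjusted p = 0.122) and Cdt1 (-0.36, SE 0.11, edgeR adjusted p = 0.151) came next by p and did not pass it with TMM scaling, so for those 4 the difference between media depends on the scaling or the tool. The call of Mcm5 held without any single library, with a highest adjusted p of 0.046; 2 members were lower without control OL library C and 3 without guide 1 OL library B.

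Among members with at least 10 CPM in the higher group, the largest differences that did not pass were those of Cdc6 (-0.99, SE 0.66, edgeR adjusted p = 0.645) and Pole (0.74, SE 0.39, edgeR adjusted p = 0.532). Cdc6 read 5.22, 3.15 and 5.91 CPM in control OLs, 0, 1.35 and 3.52 CPM for guide 1 and 3.91, 3.09 and 2.82 CPM for guide 2. Its OPC libraries read 41.4, 37.3 and 33.2 CPM in control, 32.0 and 33.2 CPM for guide 1 and 41.5, 41.5 and 32.1 CPM for guide 2. Pole read 4.93, 4.85 and 5.04 CPM in control OLs and from 3.29 to 6.87 CPM in targeted OLs. Cdc45 (0.57, edgeR adjusted p = 0.809) and Ccne1 (-0.51, edgeR adjusted p = 0.300) complete the 6 largest with Mcm5 and Mcm10. Over the members 22 differences were below 0 and 18 above, with a median of -0.06 against 0.02 over all genes. All 5 clamp and loader genes had differences above 0 (0.10 to 0.45) and none passed the threshold.

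**Figure D5:**
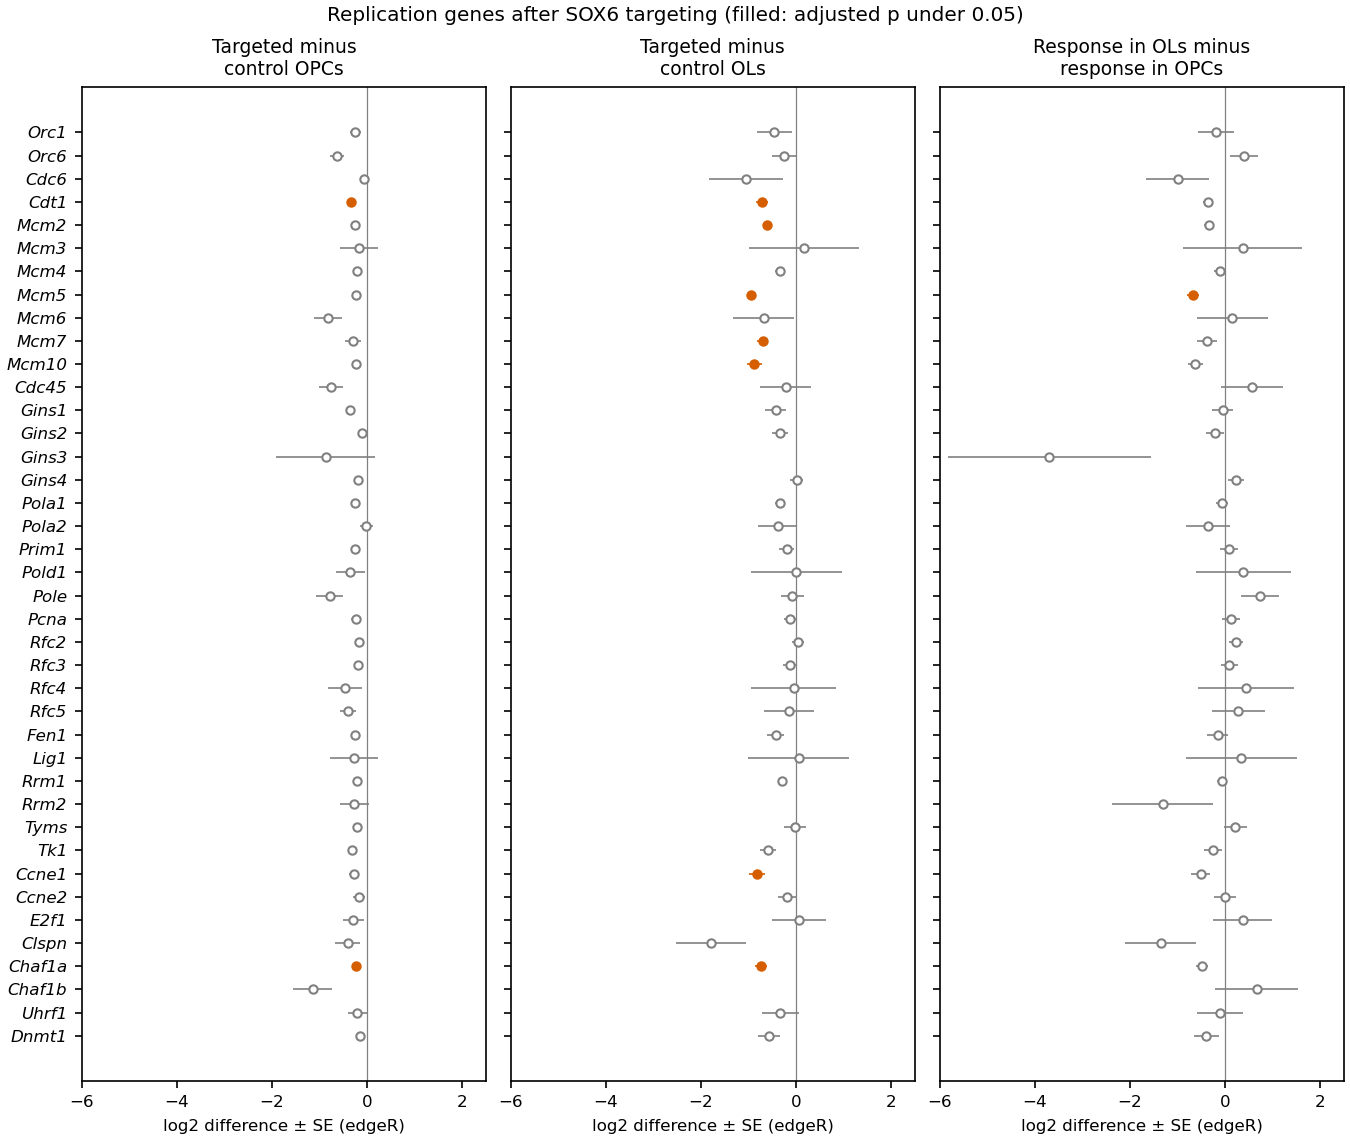
Log2 difference ± SE (x axis) of each member (y axis) after targeting in OPCs, in OLs, and as the response in OLs minus that in OPCs (edgeR; both guides against control); orange filled points passed an adjusted p of 0.05. All 40 points lie below 0 in OPCs with 2 filled, 7 are filled in OLs, and Mcm5 alone is filled in the third panel.

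Related genes from the other lists moved as follows under targeting, over both guides unless a guide is named. Of all genes tested, 3.37% fell in OLs and 1.63% in OPCs, the latter 1.47% with guide 1 alone and 0.719% with guide 2 alone. In the test between media 0.773% of all genes were lower. Of 39 tested other replication fork genes 8 fell in OLs, led by Ticrr, which works with the firing factors at origins (-1.38), Asf1b, a histone chaperone (-1.10), and Ccna2, cyclin A2 (-0.85); in OPCs 4 of 40 fell. Of 20 S phase checkpoint and recombination genes 2 fell in OLs, the larger fall being that of Rad51ap1 (-1.40), and in OPCs 1 of 21, Rad51ap1 (-0.36). Of 17 E2F and pocket protein genes 3 fell in OLs, E2f2 (-1.48), Mybl2 (-1.03) and Lin9 (-0.51), and in OPCs none by edgeR, with 6 at an unadjusted p under 0.05. Of 12 genes of G1 cyclins, their kinases and inhibitors 3 fell in OPCs and 4 in OLs. Cyclin D3 (Ccnd3) fell in both media (-0.35 and -0.55), the kinase Cdk6 in OLs (-0.76), and the inhibitors Cdkn1a in OPCs (-0.26) and Cdkn2c in OLs (-0.55). Ccnd1, cyclin D1, which starts the path to E2F release, fell in both media (-0.42 in OPCs and -1.32 in OLs) and passed the test of the difference between them (-0.87, edgeR adjusted p = 0.00021). With guide 1 alone in OPCs Ccnd1 (-0.64), Ccnd3 (-0.43), Cdkn1a (-0.38) and Rad51ap1 (-0.46) fell by edgeR. With guide 2 alone there none of them passed the threshold. Ccnd1 was at -0.21 (edgeR adjusted p = 0.175), Ccnd3 at -0.28 (0.0697), Cdkn1a at -0.14 (0.392) and Rad51ap1 at -0.26 (0.181). The 4 other replication fork genes that fell in OPCs also fell with guide 1 alone and not with guide 2 alone. Of the genes of mitosis and G2, the phases after replication, 18 of 27 tested fell in OLs, with a median of -0.93, and 4 of 29 in OPCs, with a median of -0.24. In OPCs 17 of 29 fell with guide 1 alone (median -0.47) and 0 with guide 2 alone by edgeR (median -0.01), where 1 was lower and 1 higher at an unadjusted p under 0.05. In the test between media 9 of 29 of them were lower against 1 of 40 members; the difference between the 2 lists was not tested.

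The sum of the astrocyte markers was higher in the targeted OL libraries than in control OLs. They summed to 7277 ± 157 CPM in control OLs (7100 to 7399), 8595 ± 792 CPM for guide 1 (8047 to 9503) and 8610 ± 77 CPM for guide 2 (8536 to 8690) (SD, n = 3 each), none of the 12 at 0. The astrocyte sum joins markers that moved apart (means in control, guide 1 and guide 2 OLs). Aldoc was at 1209, 1954 and 1667 CPM and Apoe at 2175, 2884 and 2720 CPM. Sox9 was at 414.7, 332.3 and 370.2 CPM and S100b at 204.6, 185.4 and 159.5 CPM. Oligodendrocyte markers summed to 3032 ± 113, 2966 ± 74 and 3373 ± 49 CPM in the same groups. That sum joins markers that moved apart: Mobp was at 1.43, 65.4 and 73.0 CPM, Ermn at 0.242, 12.5 and 10.4 CPM, and Bcas1 at 876.6, 372.6 and 438.4 CPM (means). Neuron markers summed to 2492 ± 63, 1797 ± 580 and 2252 ± 27 CPM. In OPCs the astrocyte markers summed to 2006 ± 76 CPM in control, to 2227 ± 31 CPM for guide 1 (n = 2), and for guide 2 to 2116 ± 47 CPM. Oligodendrocyte markers ran from 222.2 to 260.3 CPM in control OPCs, from 332.8 to 336.1 CPM for guide 1 and from 296.2 to 337.8 CPM for guide 2, so every targeted OPC library lay above control. Neuron markers ran from 1430 to 1707 CPM in control OPCs, from 1377 to 1424 CPM for guide 1 and from 1285 to 1338 CPM for guide 2, all targeted libraries below control. The astrocyte and neuron sums of OPCs also join markers that moved apart (means in control, guide 1 and guide 2 OPCs). Aldoc was at 584.7, 704.4 and 652.2 CPM, but Sox9 at 290.5, 189.8 and 177.8 CPM. Map2, the largest part of the neuron sum, ran from 1003 to 1256 CPM in control and from 1055 to 1096 CPM for guide 1. Stmn2, a low row, was at 0.089, 1.15 and 1.05 CPM. The part of other cells in the falls of the members was not tested.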

How the data were processed

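Poly(A) RNA of 23 libraries in 8 groups had been sequenced. The submitters' processing notes name Salmon 0.14.1, DESeq2 and mm10; the sources used here do not state whether counting used strand. Estimated counts by gene symbol were deposited by the authors for the 17 libraries of the SOX6 experiment, and TPM (scaled for length and depth) for all libraries. The authors' deposited comparison tables give log2 fold changes, control relative to targeted, and an adjusted p-value for each gene.

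Estimated counts were rounded to whole numbers, filtered (filterByExpr, minimum count 10, total 15), scaled by TMM and tested with edgeR 4.0.16 (quasi-likelihood F test, two-sided) in R 4.3.3, each stage fitted alone, stage contrasts over all 17 libraries. For sorted cells, limma 3.58.1 was run on log2(TPM + 1). P-values were adjusted by Benjamini-Hochberg over all genes tested, with a threshold of 0.05. CPM are TMM-scaled over 17 libraries. SE is the log2 change divided by the root of F. No 2 libraries were identical. Scripts were tested on simulated data.

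The members and gene lists were chosen with earlier results of these data known. Members described by library were the 6 with the largest change in each main comparison (with a higher group mean of 10 CPM or TPM, or more), those past the threshold after targeting, and 1 of each role. For some of their groups only a range, a highest value or the points of a figure are given. Of other lists, up to 4 genes with the largest change were named. DESeq2 1.42.0, other scalings, filters and pseudocounts, a transcript length offset, 1 fit of all libraries and leaving out each library were the alternatives. Row lengths, tests of guide 2 minus guide 1 and counts without short rows were added after seeing the data. Repeated names in the sorted table (2) were left out. Some genes of the related lists are counted but not reported here by name.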

Additional observations from a re-analysis of the deposited data

Results flagged for a closer look

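Mcm5 was the 1 member whose response to targeting differed between the stages by a test of the difference itself, with a log2 response in OLs minus that in OPCs of -0.68 (SE 0.12, edgeR adjusted p = 0.0124). Its 6 targeted OL libraries ran from 24.4 to 36.97 CPM below controls of 54.8 to 59.2 CPM, while in OPCs, against controls of 341.5 to 404.7 CPM, the guide 1 libraries lay lower at 275.1 and 293.5 CPM (a fall by edgeR, adjusted p = 0.0481) and the guide 2 libraries (314.9 to 351.3 CPM) overlapped them. Groups of 3 or fewer libraries were not put to a formal test for outlying libraries. Results on leaving out each library in turn are given above.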

How the results depend on the processing

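No paired analysis was possible because the columns carry letters and not the replicate numbers of the labels. In the sorted cells the median log2 difference was -3.32 with a pseudocount of 0.1 and -1.89 with one of 5, which changes the scale itself; in control cells it was -2.50 with the transcript length offset and -2.41 to -2.23 without single libraries. Falling members in targeted OPCs numbered 4 with library totals, 4 with no low count filter, 0 with the length offset, 9 by DESeq2, 1 in 1 fit of all 17 libraries, 8 with guide 1 alone (median -0.35), 0 with guide 2 alone (median -0.14), and 0 to 4 without single libraries. In targeted OLs they numbered 11 by DESeq2, 12 in 1 fit of all libraries and 2 to 14 without single libraries, and the median with guide 2 alone was -0.46. For the stage difference the counts were 5 with library totals (median -0.17), 4 by DESeq2 and 1 to 3 without single libraries. With guide 1 in OPCs they were 0 with the length offset, 15 by DESeq2, 2 in 1 fit and 0 to 11 without single libraries, and with guide 2 there 0 to 1. With guide 1 in OLs they were 3 with no filter and 1 to 9 without single libraries, and with guide 2 in OLs 3 with no filter, 2 with the length offset, 11 by DESeq2, 11 in 1 fit and 2 to 14 without single libraries. The cause of these changes was not tested.

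Among the members recomputed under each alternative, signs turned for 5, none of them called over both guides with all libraries (Pcna was called in OLs without guide 1 library B). With guide 1 alone Pcna was 0.058 and Lig1 -0.31 in OLs. Without single libraries the ranges were -0.71 to 0.42 for Lig1 and -0.53 to 0.063 for Rrm2 in OPCs; -0.45 to 1.22 for Lig1, -0.67 to 0.13 for Uhrf1 and -0.79 to 0.0088 for Cdc45 in OLs; and -0.048 to 0.25 for Pcna, -0.44 to 0.35 for Uhrf1, -0.35 to 1.48 for Lig1 and -0.0091 to 0.79 for Cdc45 in the stage difference. With the length offset Cdt1 (adjusted p = 0.0627) and Chaf1a (0.507) were no longer called in OPCs, nor Mcm10 (0.359) in OLs, by edgeR. Without the 12 members with short rows 2 members fell in OPCs and 6 in OLs. A fall of Rrm2, at under 1 CPM in every OL library, was not detectable at this depth.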
